A study of Mus musculus with 12 samples.

Results

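Of the 32285 genes in the count table, 30 were abundant in undifferentiated mouse embryonic stem (ES) cells and scarce 4 days later in each of 3 genotypes. They were chosen by their measured levels in these same libraries. A gene entered when, in every genotype, its lower day 0 value was at least 5 CPM (counts per 1000000 of the library total) and at least 3 times its higher day 4 value. Per the labels, the 12 libraries came from E14Tg2a.IV ES cells, a line derived from mouse blastocysts, in 6 groups of 2. Levels of Hprt, Eif2s3y and Xist, given below, differed between the genotypes. The genotypes were wild type (WT), Smad2/3 double knockout (S23DKO, S2/3DKO in the labels) and Smad4 knockout (S4KO). Each was taken as undifferentiated ES cells (day 0) and after LIF had been removed and embryoid bodies (EBs) had formed for 4 days (day 4). Per the labels all groups are on the same line; how many clones stand behind each knockout is not given in the sources used here, and nothing says that the 2 libraries of a group were separate cultures, so p-values measure the spread between these libraries.

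LIF is a cytokine that activates STAT3 and keeps mouse ES cells self-renewing. When it is withdrawn and the cells aggregate, the transcription factors of the naive state decline and the cells of the embryoid body move towards epiblast, germ layer and extraembryonic fates. Nodal and activin act through Smad2 and Smad3, BMPs through another set of Smads, and both sets enter the nucleus with Smad4. The question here is which genes an ES cell turns down during those days with and without these Smads, and how far.

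The 30 genes are not the textbook naive factors. None of them was in the 11 gene lists written for this tissue, which cover the naive network, LIF and STAT3 targets, germ cell genes, keratins, the Nodal and BMP pathway and others. The rule leaves out 17 genes by name, most of them on these lists, although 0 of the 17 met its thresholds. Only 0.160% of the 18693 genes kept for testing met the rule, so finding none on the lists is near that share. Of the 30, 29 are protein-coding and 1 is a lincRNA (Gm46332). By role they include cytoskeletal and neuronal proteins (Stmn2, Cobl, Calb2, Itpka, Nmnat2), secreted and surface proteins (Pcolce, Fetub, Apod, Msln, Emp1, Mymx), proteases and protease inhibitors (Napsa, Serpinb1a, Serpinb6c), a crosslinking enzyme of squamous epithelium (Tgm1), membrane transporters (Slc11a1, Slc13a5, Slc47a1), other enzymes (Dpys, Dglucy, Prmt8, Isoc2a, Accsl), the XIAP-associated factor Xaf1, and Lrrc2, Lrriq4, Vwa3b and Ankrd35, whose roles are less clear. This grouping only orders the account.

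The genes lay on 15 chromosomes in the mm10 assembly, with 4 on chromosome 11, and only 1 pair was adjacent. Slc13a5, the plasma membrane citrate transporter (chr11:72241989-72267222, minus strand), and Xaf1 (chr11:72301629-72313733, plus strand) are transcribed away from each other with 34.4 kb and no other gene of the table between them. Serpinb1a (chr13:32842092-32851185) and Serpinb6c (chr13:33879816-33905708) share the serpin cluster of chromosome 13, with 17 genes between them, and reads of such paralogs may have been shared out between them. Strand was not given in the sources used here, so reads of overlapping genes cannot be told apart: Lrriq4 overlaps Lrrc34, which reached 80.1 CPM, whereas the overlapping partners of 10 other genes stayed at or below 3.45 CPM in every library.

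Promoters were available for 21 of the 30 genes, as 30 windows of 300 bases (250 before and 50 after the start) from RefSeq on GRCm38.p6. Calb2, Mymx, Stmn2, Slc47a1, Msln, Serpinb1a, Napsa and Dpys were among those not matched. Since all groups lost LIF, the STAT dimer motif TTCNNNGAA was looked for on both strands, and it occurred in 4 of the 30 windows (13.3%) against 8.30% of 32851 windows over all genes. These 4 are shown because they are the only windows of the 30 genes with that motif. They lie at chr6:135362681-135362980 (plus strand) for Emp1, chr14:55713443-55713742 (minus strand) for Tgm1, chr2:119742087-119742386 (plus strand) for Itpka and chr9:110951295-110951594 (plus strand) for Lrrc2. Capitals mark each match to the motif, and the sequences run from 5′ to 3′ on the gene's strand.
Emp1: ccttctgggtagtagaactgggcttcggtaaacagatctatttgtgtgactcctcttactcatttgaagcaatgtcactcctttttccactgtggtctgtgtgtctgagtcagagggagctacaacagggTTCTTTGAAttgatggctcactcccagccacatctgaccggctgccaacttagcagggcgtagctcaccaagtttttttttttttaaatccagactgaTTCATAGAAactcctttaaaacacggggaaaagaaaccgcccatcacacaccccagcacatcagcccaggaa
Tgm1: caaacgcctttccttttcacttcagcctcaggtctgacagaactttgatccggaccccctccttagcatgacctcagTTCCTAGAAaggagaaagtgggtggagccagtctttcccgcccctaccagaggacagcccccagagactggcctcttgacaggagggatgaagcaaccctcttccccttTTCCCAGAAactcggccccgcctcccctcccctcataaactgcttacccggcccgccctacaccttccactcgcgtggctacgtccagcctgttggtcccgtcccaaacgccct
Itpka: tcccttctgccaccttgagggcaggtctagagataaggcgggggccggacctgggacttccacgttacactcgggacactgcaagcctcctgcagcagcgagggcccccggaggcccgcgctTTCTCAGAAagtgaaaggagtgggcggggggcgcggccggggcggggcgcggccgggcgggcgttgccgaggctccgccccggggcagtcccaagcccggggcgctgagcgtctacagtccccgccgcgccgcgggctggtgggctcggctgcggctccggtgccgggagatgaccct
Lrrc2: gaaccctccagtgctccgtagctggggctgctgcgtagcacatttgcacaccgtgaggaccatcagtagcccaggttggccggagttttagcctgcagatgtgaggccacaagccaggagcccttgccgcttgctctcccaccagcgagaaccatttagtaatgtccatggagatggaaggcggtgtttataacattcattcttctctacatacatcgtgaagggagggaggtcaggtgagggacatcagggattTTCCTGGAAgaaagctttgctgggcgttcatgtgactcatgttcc
Emp1 and Tgm1 each held the motif at 2 places, and Itpka and Lrrc2 at 1. In Emp1 the matches began 120 and 22 bases before the start, in Tgm1 173 and 64 bases before it. A KLF motif, GGGCGTGG, was present in 3 windows (Fetub, Pcolce and Slc11a1, against 5.33% of all windows), and the TFCP2L1 motif (CCAG, any 6 bases, CCAG) in 2 (Ankrd35 and Pcolce, 6.70% against 3.44%). TATAAA occurred in 4 windows (13.3% against 13.6%). The other KLF form GGGTGTGG, the ESRRB motif TCAAGGTCA, the octamer ATGCAAAT, the CRE TGACGTCA, the E-box CACGTG, the NRF1 palindrome and the SMAD palindrome GTCTAGAC were in none of the 30 windows, against 0.213% to 7.15% of all windows. The CpG observed over expected ratio had a median of 0.403 in these windows and 0.384 in all, and 9 of 30 reached 0.6 against 35.8%. These are letter matches and say nothing of binding.

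The libraries held 31566376 to 55806858 counts, and replicates correlated at 0.962 to 0.993 (log2 CPM). Whole-gene counts do not resolve which exons were deleted, so the targeted genes did not check the labels: Smad4 had 44.3 ± 3.92 CPM in WT and 88.9 ± 12.6 CPM in the libraries labelled S4KO at day 0 (SD, n = 2), and Smad2 had 29.8 ± 7.28 CPM in WT and 44.0 ± 8.58 CPM in S23DKO. The lines also differed beyond the Smad genes. Hprt, which the E14Tg2a parent lacks, was at 206 ± 1.56 CPM in S4KO at day 0 and at 0.473 ± 0.130 CPM in WT. The Y-linked Eif2s3y was at 57.1 ± 3.16 CPM in WT and at 0 in both S23DKO libraries of day 0. Xist was at 58.6 ± 35.8 CPM in S23DKO, 0.819 ± 0.164 CPM in WT and 4.22 ± 3.54 CPM in S4KO at day 0. A difference between genotypes therefore cannot be told apart from a difference between lines. Ribosomal protein genes took 15% and 11% of the counts in the WT day 0 libraries and 5.01% to 7.84% elsewhere. The summed level of 9 ES cell markers was 7217 to 7571 CPM in WT, 3844 to 4885 CPM in S23DKO and 5105 to 5865 CPM in S4KO at day 0. The 11 feeder fibroblast markers summed to 15.8 to 64.6 CPM over the 12 libraries, highest in S23DKO at day 4 (60.1 and 64.6 CPM, with 32.5 and 47.8 CPM in WT), and 4 to 6 of them, with Lum, S100a4 and Twist2 among these each time, were below 1 CPM in every group. The mitochondrial share was 6.74% in the second S23DKO library of day 0, against 1.87% to 3.93% in the other 11.

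At day 0 the 30 genes spanned 5.32 to 480 CPM, and 18 of them averaged at least 10 FPKM (fragments per kilobase, a scale on which genes of different length can be compared). Stmn2, a stathmin-family protein that binds tubulin, stood highest at 180 FPKM over the 6 day 0 libraries. Mymx, the myomixer peptide of myoblast fusion, came next at 67.9 FPKM, then Pcolce, the procollagen C-proteinase enhancer, at 64.7 FPKM. Cobl, an actin nucleator, averaged 38.6 FPKM. Isoc2a stood at 23.1 FPKM and Nmnat2, an axonal enzyme of NAD synthesis, at 22.1 FPKM, and Slc13a5 closed the order at 3.41 FPKM. Stmn2 thus stood far above the rest of the set in ES cells.

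**Figure D1:**
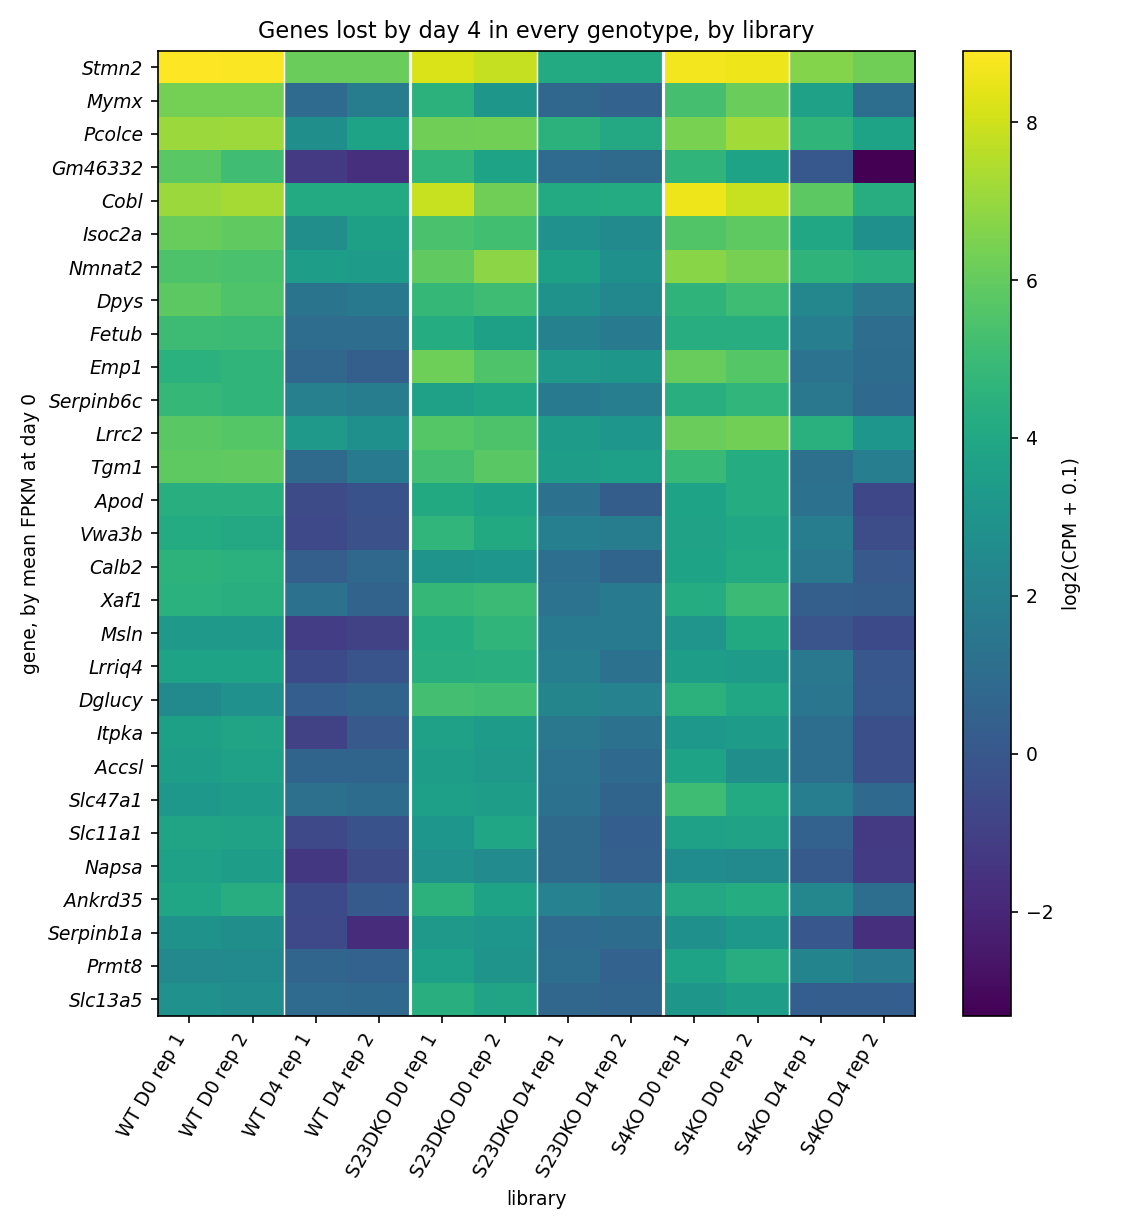
Each row is 1 of 29 genes, ordered by its mean FPKM at day 0, each column is 1 of the 12 libraries, and the colour is log2(CPM + 0.1). Day 0 columns are brighter than the day 4 columns of the same genotype in all rows, as the choice of the genes requires, and Stmn2 is the brightest row at day 4 in WT and S4KO (68.2 to 98.0 CPM).

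The falls themselves chose the genes and are given as a description. Summed over the 30 genes, WT went from 1523 and 1486 CPM at day 0 to 156 and 169 CPM at day 4. In S23DKO the sum went from 1311 and 1055 CPM to 178 and 150 CPM. In S4KO it went from 1665 and 1553 CPM to 325 and 182 CPM. In these bulk samples, fewer cells that hold a transcript and less of it per cell cannot be told apart. The median log2 fold change from day 0 to day 4 was -4.27 in WT, -2.71 in S23DKO and -3.08 in S4KO, or -3.99 in S4KO without its day 4 replicate 1, a library described further on. WT had the deepest fall of the 3 genotypes for 21 of the 30 genes, and S23DKO the shallowest for 19. The same thresholds applied to 1 genotype alone were met by 369 genes in WT (1.97% of the 18693 tested), 91 in S23DKO (0.487%) and 75 in S4KO (0.401%), and the 30 that met them in all 3 make 0.160%.

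**Figure D2:**
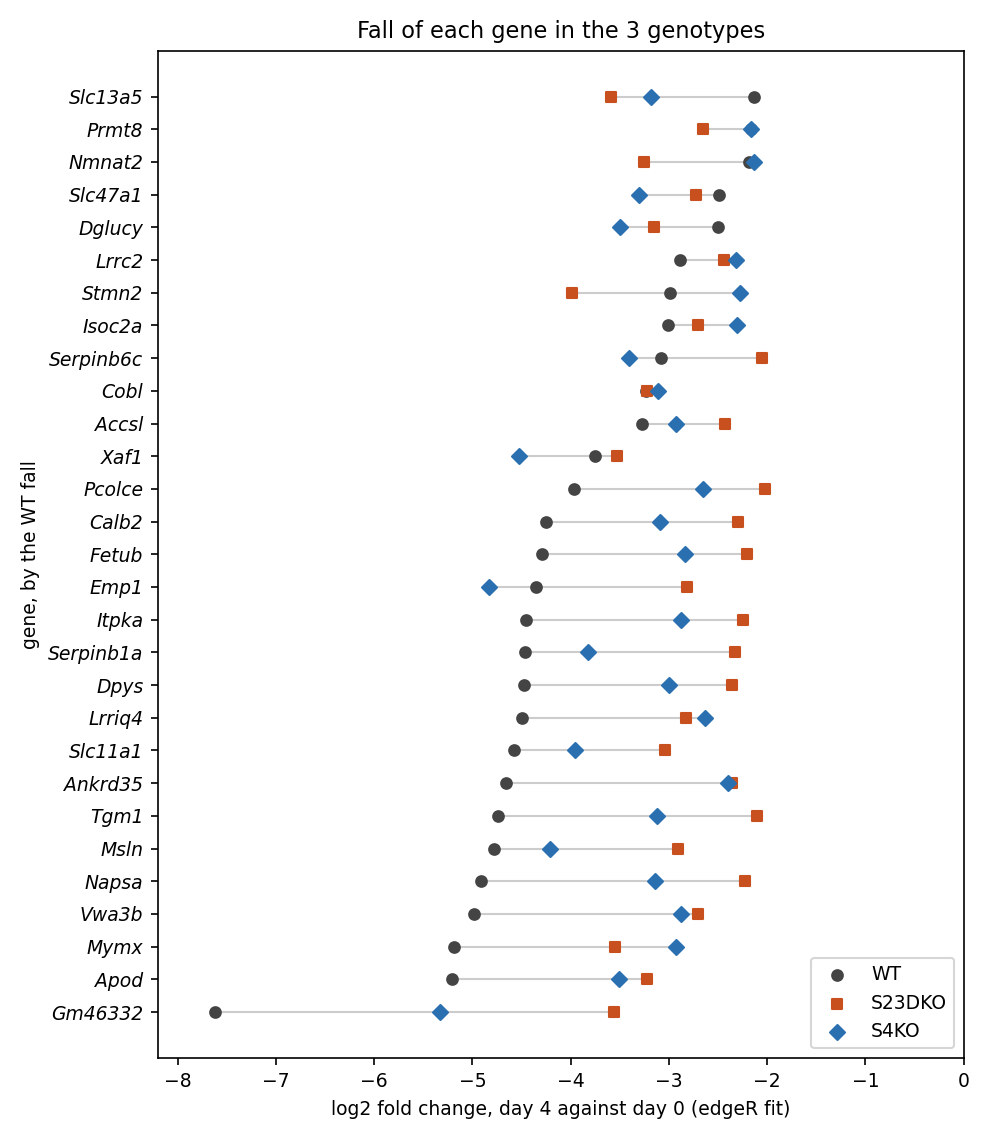
Each row is 1 of 29 genes, ordered by its fall in WT, and the marks give the log2 fold change of day 4 against day 0 from the edgeR fit in WT (circles), S23DKO (squares) and S4KO (diamonds). Most WT marks lie to the left, down to -7.62 for Gm46332, while no S23DKO mark is below -3.99 (Stmn2).

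Some genes came close to disappearing. Xaf1 kept the widest gap in its weakest genotype: its day 0 libraries in WT held 22.3 and 20.0 CPM, its day 4 libraries 2.28 and 1.38 CPM. In S23DKO it had 28.6 and 32.4 CPM and then 2.38 and 3.21 CPM, and in S4KO 19.0 and 32.5 CPM and then 1.20 and 1.11 CPM. Its lower day 0 value was at least 8.80 times its higher day 4 value in every genotype. The lincRNA Gm46332 came next with a smallest ratio of 7.40: it went from 54.1 and 36.01 CPM to 0.317 and 0.213 CPM in WT, from 26.4 and 13.4 CPM to 1.81 and 1.78 CPM in S23DKO, and from 25.4 and 13.7 CPM to 0.924 and 0 CPM in S4KO. Msln, which encodes the surface protein mesothelin, had a smallest ratio of 5.88 and Apod, which encodes a lipid-binding apolipoprotein, one of 5.66. Emp1, a tetraspan epithelial membrane protein, followed at 4.99, Slc11a1, a metal transporter known from macrophages, at 4.76, Serpinb1a at 4.49 and Cobl at 4.12. At day 4, 10 of the 30 genes were below 1 CPM in both WT libraries, 3 in both S4KO libraries and 0 in both S23DKO libraries.

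At the other end, Slc13a5 fell least in WT, from 7.14 and 6.27 CPM to 1.85 and 1.72 CPM. Its ratio of lower day 0 to higher day 4 value in WT was 3.40, and that of its neighbour Xaf1 was 8.80. Stmn2 had the highest CPM of the set at day 4 in WT (68.4 and 68.2) and in S4KO (98.0 and 76.4). In S23DKO it stood at 17.8 and 16.9 CPM, near Cobl (17.9 and 18.4 CPM) and Pcolce (23.4 and 16.7 CPM). Just inside the 3-fold threshold were Fetub (3.05), Prmt8 (3.05) and Isoc2a (3.08), and just outside were Cth (2.95), Khdc3 (2.94) and Nlrp4f (2.93). Just inside the level threshold were Prmt8 (5.32 CPM), Dglucy (5.60 CPM) and Napsa (5.62 CPM), and just outside were Catip (3.53 CPM), Mia (3.31 CPM) and Il27ra (3.10 CPM).

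The 17 genes that the rule names to be left out are mainly naive pluripotency factors and LIF targets, and 0 of these met the thresholds in all 3 genotypes. In WT, 12 of the 17 did so. In S23DKO 16 of the 17 missed, and in S4KO 13 did. Klf2, a naive-state transcription factor, shows the pattern: it went from 299 and 313 CPM to 18.1 and 44.2 CPM in WT. In S23DKO its day 0 libraries held 179 and 34.9 CPM and its day 4 libraries 66.3 and 39.0 CPM, so the groups overlapped. In S4KO it had 168 and 263 CPM and then 137 and 67.0 CPM. Nanog missed in WT (402 and 446 CPM, then 293 and 248 CPM) and in S4KO, and was the 1 name that met the thresholds in S23DKO. Klf4, Socs3 and Tbx3 missed in S23DKO alone. S23DKO day 0 replicate 2 was the lower library for 15 of these 17 names, by a median of 2.39 times. It was the lower one for 20 of the 30 genes, by 1.14 times, and for 47.0% of all genes tested. The rule required a high value in the lower day 0 library, so the gap of the 30 genes is not independent of the choice. The part of the rule in it was not tested. Without S23DKO day 0 replicate 2, Klf4 and Tbx3 would have met the thresholds.

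**Figure D3:**
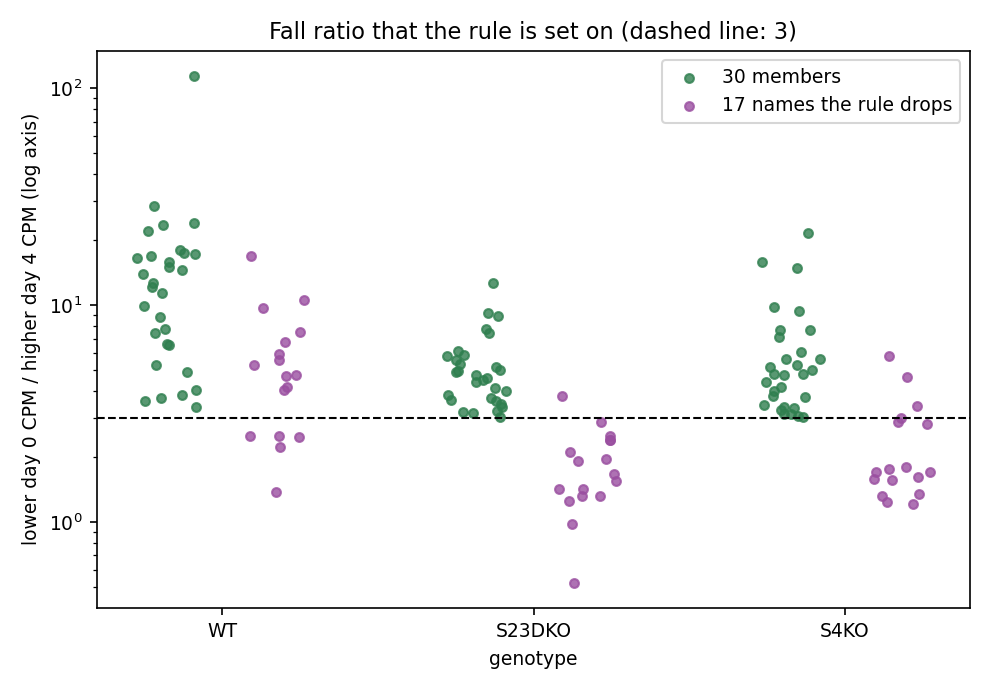
Points give, for each genotype, the lower day 0 CPM divided by the higher day 4 CPM on a log axis, for the 30 genes (green) and the 17 names that the rule leaves out (purple), and the dashed line is the threshold of 3. All green points lie above the line by choice, and 12 purple points do in WT, 1 in S23DKO and 4 in S4KO.

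Of the fixed lists, the naive network was called lower at day 4 for 26 of 30 genes in WT, 15 in S23DKO and 10 in S4KO, by edgeR's quasi-likelihood test at an adjusted p below 0.05. Over all genes tested the shares called lower were 19.9%, 3.46% and 3.81%. Of 18 LIF and STAT3 targets, 11 fell in WT, 5 in S23DKO and 4 in S4KO, and of 29 germ cell and maternal-effect genes 14, 9 and 12 fell. Without S4KO day 4 replicate 1 the counts in S4KO were 20, 7 and 15 (4.23% of the 19391 genes then tested). Other lists went both ways, and 1 naive network gene rose in WT. Of 21 epithelial adhesion and keratin genes 6 rose in each genotype, and 5, 1 and 3 fell. Of 25 Nodal, activin and BMP pathway genes 8, 4 and 4 rose, and 6, 3 and 3 fell. Of 16 2-cell embryo genes 3 rose and 0 fell in WT. The remaining lists held both kinds in WT. Over all genes tested 23.8%, 3.57% and 5.08% rose. The difference between genotypes was not tested for these lists.

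The 2 S4KO libraries of day 4 stood apart from each other for these genes. A pair of libraries cannot show which of them deviates. In S4KO at day 4, replicate 1 was above replicate 2 for 29 of the 30 genes, by a median of 2.49 times, while 51.0% of all genes tested were higher in replicate 1. Cobl had 56.1 and 19.6 CPM in the 2 libraries, and Mymx 12.5 and 2.06 CPM. Tgm1 was the exception at 2.20 and 3.67 CPM. Replicate 1 was also above replicate 2 for 15 of the 17 names left out, by 2.08 times. The 9 ES cell markers summed to 3049 CPM in replicate 1 and 1781 CPM in replicate 2. In that order, epiblast and primitive streak markers summed to 91.5 and 305 CPM, and trophectoderm markers to 189 and 386 CPM. Replicate 2 held 31566376 counts, the fewest of the 12 libraries. The part of this in the S4KO values at day 4 was not tested. Medians and list counts for S4KO at day 4 are given with and without replicate 1, and not without replicate 2. The rule would be met by 51 genes without replicate 1 and by 30 without replicate 2.

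**Figure D4:**
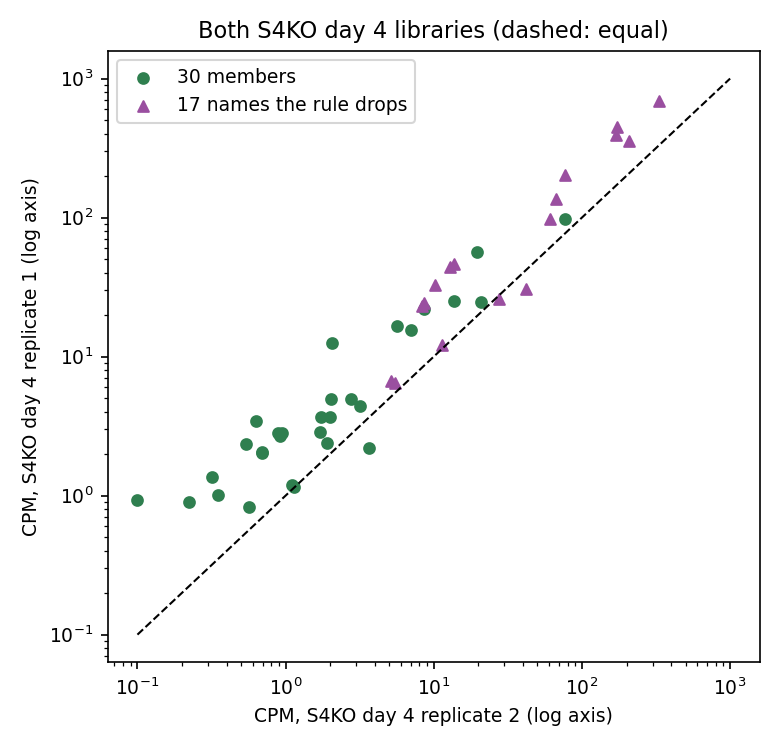
Each point is a gene, with its CPM in S4KO day 4 replicate 2 on the x axis and in replicate 1 on the y axis, both on log axes, and a value of 0 is drawn at 0.1. Of the 30 genes (green circles) 29 lie above the dashed line of equality, as do 15 of the 17 names left out (purple triangles).

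At day 4, S23DKO embryoid bodies held more RNA than WT of 11 of the 30 genes, led by Msln and Emp1, and less of 1, Stmn2, by edgeR's test, where 7.21% of all genes tested were called higher and 15.2% in either direction. The median log2 difference was 0.83 over the 30 genes and -0.03 over all genes. Both S23DKO libraries lay above both WT libraries for 19 of the 30 genes (34.4% of all genes) and below them for 3 (26.8%). The rule made no comparison between genotypes, but it used these same values. It set a floor on day 0 values and a ceiling on day 4 values within each genotype. The 30 genes are therefore no random draw from all genes. Their differences between genotypes, at either day, are not independent of the choice.

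In WT at day 4 Msln stood at 0.373 and 0.426 CPM, with 3.05 and 3.25 CPM in S23DKO and 0.826 and 0.570 CPM in S4KO. It was 2.87 ± 0.40 log2 units higher in S23DKO than in WT (SE, adjusted p = 0.00118). Emp1 had 1.55 and 1.18 CPM in WT, 9.26 and 8.74 CPM in S23DKO and 2.40 and 1.90 CPM in S4KO. The S23DKO libraries were thus far above the others, with a log2 difference from WT of 2.61 ± 0.31 (adjusted p = 0.000427). Tgm1, the transglutaminase that crosslinks the cornified envelope, had 1.79 and 3.33 CPM in WT, 11.04 and 12.03 CPM in S23DKO and 2.20 and 3.67 CPM in S4KO, and its difference was 2.07 ± 0.37 (adjusted p = 0.00431). These 3 genes were the ones among the 11 whose call held under all 11 alternative settings and without any single library.

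Vwa3b had 0.560 and 0.717 CPM in WT and 3.75 and 3.37 CPM in S23DKO (2.37 ± 0.58, adjusted p = 0.0192). Serpinb1a, an inhibitor of neutrophil proteases, had 0.560 and 0.194 CPM in WT and 1.85 and 1.92 CPM in S23DKO (2.20 ± 0.57, adjusted p = 0.0238). Ankrd35 had 0.578 and 0.988 CPM in WT and 4.25 and 3.31 CPM in S23DKO (2.17 ± 0.46, adjusted p = 0.0100). These are low levels in WT, and the groups did not overlap. Lrriq4 differed by 2.01 ± 0.47 (adjusted p = 0.0154), from 0.578 and 0.794 CPM to 3.66 and 2.27 CPM, and shares its locus with Lrrc34. Itpka, an inositol trisphosphate kinase, rose from 0.410 and 0.969 to 2.83 and 2.25 CPM, and Dglucy, the D-glutamate cyclase, from 1.18 and 1.45 to 4.68 and 4.15 CPM. Napsa, an aspartic protease, went from 0.298 and 0.620 to 1.76 and 1.24 CPM, and Dpys, a pyrimidine-degrading enzyme, from 2.50 and 2.96 to 7.74 and 5.17 CPM. For these 4 the log2 differences were 1.78 ± 0.49, 1.64 ± 0.42, 1.60 ± 0.49 and 1.14 ± 0.33, with adjusted p between 0.0220 and 0.0481.

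Stmn2 went the other way. Its 68.4 and 68.2 CPM in WT compared with 17.8 and 16.9 CPM in S23DKO, a log2 difference of -2.08 ± 0.22 (adjusted p = 0.000226), and this call too held under all alternatives and without any single library. With 1 library left out, Stmn2 stayed lower and fewer genes were called higher. Each such fit leaves 1 library in a group, and calls over all genes changed as well. Markers of another cell type moved with the same groups. The 11 trophectoderm markers summed to 511 and 708 CPM in WT and to 2659.5 and 3189 CPM in S23DKO at day 4, with 9 of them called higher and 1 lower, and in S4KO to 189 and 386 CPM. Of 8 epiblast and primitive streak markers 7 were lower in S23DKO (949 and 988 CPM in WT, 103 and 97.2 CPM in S23DKO), as were 4 of 12 primitive or visceral endoderm markers (1138 and 1325 CPM, then 1083.5 and 846 CPM), 2 of 9 ES cell markers and 1 of 6 neural markers, and of 10 fibroblast markers tested 1 was higher and 2 lower. The part of these markers in the result was not tested.

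**Figure D5:**
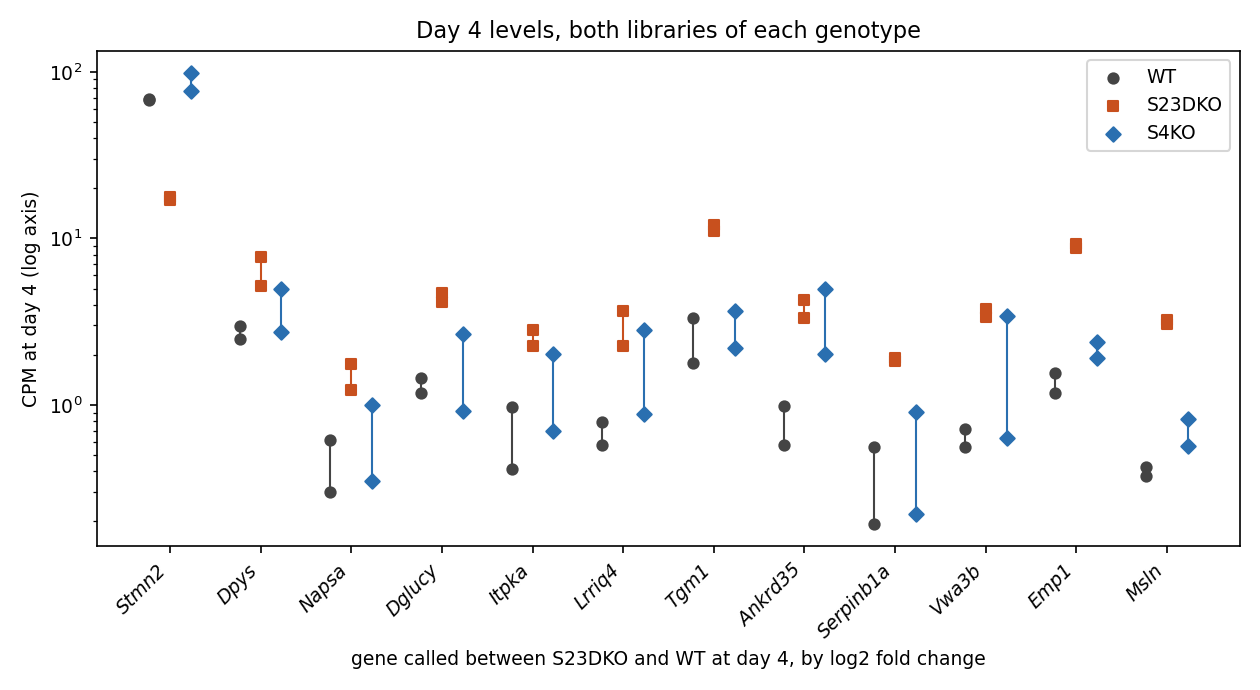
For the 12 genes called between S23DKO and WT at day 4, both libraries of WT (circles), S23DKO (squares) and S4KO (diamonds) are plotted as CPM on a log axis, ordered by the log2 difference. S23DKO lies above WT for 11 genes and below it for Stmn2 at the left.

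Between S4KO and WT embryoid bodies 1 of the 30 genes passed the test. Ankrd35 was higher, with 4.95 and 2.03 CPM against 0.578 and 0.988 CPM (2.13 ± 0.46, adjusted p = 0.0437), where 0.679% of all genes tested were called higher, and 0 were lower (1.05% of all). The median log2 difference was 0.61 (-0.03 over all genes tested) and 26 of the 30 genes were positive. Without S4KO replicate 1 that median was -0.01 and 14 were positive, and it was not computed without S4KO replicate 2. Both S4KO libraries lay above both WT libraries for 10 genes (19.8% of all) and below them for 3 (20.5%). The number of genes called changed with each library left out, and the call for Ankrd35 was lost in most such fits. Each of these fits leaves 1 library in a group, and calls over all genes changed as well. The call for Ankrd35 was also lost with the replicate number as a block. Markers moved here too: 9 of 12 endoderm markers (172 and 245 CPM in S4KO) and 5 of 8 streak markers (91.5 and 305 CPM) were lower than in WT, 3 of 6 neural markers and 1 of 9 ES cell markers were higher, and of 11 trophectoderm markers 1 was higher and 1 lower. Their part was not tested.

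Between the knockouts at day 4, 4 genes were higher in S4KO and 4 lower (5.84% and 6.45% of all genes tested). Stmn2 was 2.41 ± 0.22 log2 units higher in S4KO (adjusted p = 0.000134). Nmnat2 had 24.6 and 20.7 CPM in S4KO and 12.1 and 6.86 CPM in S23DKO (1.33 ± 0.33, adjusted p = 0.0229). Prmt8, a brain-enriched arginine methyltransferase, had 4.44 and 3.20 CPM against 2.02 and 1.32 CPM (1.27 ± 0.36, adjusted p = 0.0402). Mymx (2.39 ± 0.71, adjusted p = 0.0496) had 12.5 and 2.06 CPM in S4KO and 1.58 and 1.36 CPM in S23DKO. Its difference thus rested mostly on 1 S4KO library. For these 4 genes the libraries of the knockouts did not overlap. The calls of Nmnat2, Prmt8 and Mymx were lost under some alternative settings. Lower in S4KO were Msln (-2.08 ± 0.39, adjusted p = 0.00632), Emp1 (-1.98 ± 0.30, adjusted p = 0.00214) and Tgm1 (-1.90 ± 0.37, adjusted p = 0.00777). These 3 were also the ones whose call above WT in S23DKO held in every setting, and both comparisons use the same S23DKO libraries. Xaf1, at 1.20 and 1.11 CPM in S4KO and 2.38 and 3.21 CPM in S23DKO, was lower as well (-1.20 ± 0.35, adjusted p = 0.0444). Of 6 neural markers 3 were higher in S4KO, as were 4 of 8 streak markers and 3 of 9 ES cell markers. Of 11 trophectoderm markers 10 were lower and 1 higher, of 12 endoderm markers 7 were lower, and of 10 fibroblast markers 1 was higher and 1 lower. Their part in the result was not tested. The counts changed with each library left out. Each such fit leaves 1 library in a group, and calls over all genes changed as well.

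Before differentiation the genotypes already differed in some of these genes. In S23DKO, 4 genes were higher than in WT and 7 lower (16.7% and 14.4% of all genes tested), with a median log2 difference of -0.42 against 0.02 over all genes. Dglucy had 5.60 and 7.19 CPM in WT and 37.8 and 36.05 CPM in S23DKO (2.30 ± 0.41, adjusted p = 0.00340). Emp1 had 22.5 and 25.5 CPM in WT and 73.6 and 46.2 CPM in S23DKO (1.09 ± 0.28, adjusted p = 0.0146). Slc13a5 (7.14 and 6.27 CPM, then 20.3 and 14.2 CPM, 1.13 ± 0.30) and Msln (9.55 and 9.33 CPM, then 19.12 and 25.8 CPM, 1.0 ± 0.35) were the other higher genes. Xaf1, next to Slc13a5, differed by 0.28 ± 0.32 (adjusted p = 0.525).

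Mymx was the most reduced, from 81.3 and 82.2 CPM in WT to 23.4 and 8.78 CPM in S23DKO (-2.57 ± 0.69, adjusted p = 0.0169). Calb2, the calcium-binding protein calretinin, had 23.6 and 22.7 CPM in WT and 7.81 and 8.63 CPM in S23DKO (-1.74 ± 0.42, adjusted p = 0.0110). Fetub, the liver protein fetuin-B, had 33.6 and 32.4 CPM and 19.12 and 12.3 CPM (-1.31 ± 0.32, adjusted p = 0.0125). Stmn2, which was also lower at day 4, had 480 and 451 CPM in WT and 294 and 225 CPM in S23DKO (-1.08 ± 0.21, adjusted p = 0.00461). Serpinb6c, Pcolce and Dpys were lower by -1.23 ± 0.28, -1.07 ± 0.37 and -0.97 ± 0.32. With offsets for each library's trend with transcript length and GC content, 5 genes were higher and 2 (Stmn2 and Serpinb6c) lower. Without WT replicate 1 none of these calls held, and without any other single library of these groups only some did. Each such fit leaves 1 library in a group and called fewer genes over all genes than the main fit. The WT day 0 libraries are those with the high ribosomal protein share, and the 11 trophectoderm markers summed to 214 and 217 CPM in them and to 732 and 1190.2 CPM in S23DKO at day 0, with 8 of them higher. Of 12 endoderm markers 8 were higher (64.9 and 78.2 CPM in WT, 340 and 416 CPM in S23DKO), while 3 of 9 ES cell markers and 1 of 6 neural markers were lower, and of 10 fibroblast markers 1 was higher and 1 lower. S23DKO replicate 2 is the library with the high mitochondrial share. The part of these in the result was not tested.

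S4KO ES cells had 3 genes above WT and 2 below (10.5% and 9.14% of all genes tested). Dglucy was again higher, with 23.4 and 16.1 CPM (1.45 ± 0.40, adjusted p = 0.0289), as was Emp1 with 66.1 and 51.5 CPM (1.11 ± 0.28, adjusted p = 0.0214). Both knockouts are compared with the same WT libraries. Prmt8 had 13.6 and 19.3 CPM against 5.32 and 5.43 CPM in WT (1.42 ± 0.35, adjusted p = 0.0197). Tgm1 was lower, with 29.7 and 19.12 CPM against 57.8 and 59.7 CPM (-1.45 ± 0.35, adjusted p = 0.0190), and so was Dpys, with 24.7 and 34.8 CPM against 56.7 and 46.9 CPM (-1.0 ± 0.32, adjusted p = 0.0467). With the length and GC offsets 4 were higher and 0 lower. None of these calls held in every fit with 1 library left out, and none changed direction. Such a fit leaves 1 library in a group, and most of them called far fewer genes over all genes as well. Of 12 endoderm markers 5 were higher in S4KO (153 and 142 CPM), as were 2 of 6 neural markers. Of 8 streak markers 1 was higher and 3 lower, of 11 trophectoderm markers 1 was higher and 1 lower, and 2 of 10 fibroblast markers and 1 of 9 ES cell markers were lower. Their part was not tested. Between the knockouts at day 0, edgeR called 0 of the 30 genes (5.53% of all) and DESeq2 called 4. Over all genes DESeq2 called 840 higher and 1270 lower of 19134. In the edgeR fit 10 of the 30 had an unadjusted p below 0.05, a share not counted over all genes.

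Several genes thus differed in opposite or like ways at the 2 days. Emp1, Msln and Dglucy were higher in S23DKO than in WT at both days, and Stmn2 was lower at both. Dpys was lower at day 0 (28.2 and 34.5 CPM against 56.7 and 46.9 CPM) and higher at day 4. The calls of Msln at day 0, Dglucy at day 4 and Dpys at both days were lost whichever library of the compared groups was left out. Those of Emp1, Dglucy and Stmn2 at day 0 were lost without some of these libraries. Dpys at day 0 was also lost with the length and GC offsets. Tgm1 and Napsa differed at day 4 while at day 0 Tgm1 had 38.6 and 55.4 CPM in S23DKO against 57.8 and 59.7 CPM in WT, and Napsa 7.30 and 5.94 CPM against 12.6 and 11.1 CPM. The difference between the falls of S23DKO and WT passed the test for 5 genes, all with the shallower fall in S23DKO (1.83% of all genes tested), and for 0 in the other direction (4.26%). Under some settings genes passed in the other direction as well, 2 with DESeq2, 3 with limma on log2(FPKM + 1) and 1 in each of 4 more settings. Over all genes DESeq2 called 1788 and limma on log2(FPKM + 1) called 1112 in that direction. The difference between the falls of S4KO and WT passed edgeR's test for 0 (0.150% of all in either direction). In that fit 13 had an unadjusted p below 0.05, a share not counted over all genes. DESeq2 called 5, and over all genes it called 772 positive and 777 negative of 16766. Since both falls entered the choice of the genes, these counts are a description.

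The 11 lists were compared between S23DKO and WT at day 4 in the same fit, where 7.21% of all genes tested were higher and 1495 of the 18693 were lower. Of 29 germ cell and maternal-effect genes 12 were higher and 0 lower, and of 21 epithelial adhesion and keratin genes 8 were higher and 1 lower. Of the naive network 4 of 30 were higher and 3 lower, and of the LIF and STAT3 targets 4 of 18 and 1. The shared pluripotency factors had 0 of 13 higher and 3 lower, and the ground-state metabolic genes 0 of 20 and 6. Of 25 Nodal, activin and BMP pathway genes 1 was higher and 7 lower, and of 11 Myc and growth regulators 2 and 5. Of the remaining lists, 2 of 16 2-cell embryo genes were higher and 0 lower, 1 of 20 KRAB zinc finger genes was higher and 1 lower, and of 14 genes of retrovirus and transposon silencing 2 were higher and 2 lower. The median log2 differences were 1.13 for the germ cell list, 0.81 for the epithelial list, 0.57 for the naive network, 0.50 for the LIF and STAT3 targets and 0.25 for the 2-cell genes. They were -0.85 for the shared pluripotency factors, -0.55 for the metabolic list, and between -0.12 and -0.01 for the other 4 lists. The median of the 30 genes was 0.83 and that of all genes tested -0.03.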

How the data were processed

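Total RNA of 12 samples (6 groups of 2) was made into libraries with Illumina's TruSeq RNA kit and sequenced, per the labels' protocols. The authors deposited whole-number counts per Ensembl gene ID with no normalization, 1 column per library, and FPKM values that the authors made per gene symbol. Per the submitters' processing notes, mm10 was the build, and StringTie, Cufflinks and DESeq2 were among the tools. The strand setting, the aligner and the annotation are not given in the sources used here. Symbols came from GENCODE M21 and matched 32158 of 32285 IDs.

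The 30 genes, the 11 lists, the markers and the tests were chosen with earlier results of these data known. Counts were fitted with edgeR 4.0.16 (glmQLFit, glmQLFTest) under R 4.3.3 after TMM scaling. The filterByExpr filter left 18693 genes, among them all 30. The fit held all 12 libraries with 1 coefficient per group. P-values were Benjamini-Hochberg adjusted over all genes tested and called below 0.05. The standard error is the log2 fold change divided by the square root of F. The common biological coefficient of variation was 0.286. CPM values use the column total. Alternatives were RLE size factors, 2 other filters, DESeq2 1.42.0, limma 3.58.1 on log2(FPKM + 1) or log2(FPKM + 0.1), a replicate block, only the groups compared, length and GC offsets (18682 genes), and each library left out. Of 2 libraries a group, 1 left alone was assumed to vary like the other groups. Calls over all genes changed with each library left out as well. Counts of the 30 genes in such fits are therefore not a result about these genes alone. The medians and list counts without S4KO day 4 replicate 1 were added after the data were seen.

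A single gene of the 30 is counted in the totals but not reported by name here, and the plots with gene names leave it out. Genes named in the text were the 8 highest in FPKM at day 0, the 8 with the widest gap in their weakest genotype, up to 4 called in each direction per contrast, those beside the thresholds, and the names left out. A gene known only by a model number was counted and skipped in that naming. Gm46332, the remaining called genes, Cobl and Mymx beside the S4KO libraries, Slc13a5 and Xaf1 as neighbours, and the single names among the 17 were chosen after their values were seen.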

Additional observations from a re-analysis of the deposited data

Results flagged for a closer look

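The change from day 0 to day 4 differed between S23DKO and WT for 5 of the 30 genes, by the interaction term of the edgeR fit, where 1.83% of all genes tested passed in that direction and 0 of the 30 passed in the other (4.26% of all). Both falls entered the choice of the genes, so these values are a description. The fall was shallower in S23DKO by 2.68 ± 0.66 log2 units for Napsa, by 2.64 ± 0.51 for Tgm1, by 2.11 ± 0.46 for Dpys, by 2.08 ± 0.46 for Fetub and by 1.53 ± 0.40 for Emp1. With DESeq2 14 genes passed in this direction and 2 in the other, where 1434 and 1788 did over all genes. With limma on log2(FPKM + 1) 6 and 3 passed, where 613 and 1112 did over all genes. For Tgm1 the log2 fold change was -4.74 in WT and -2.10 in S23DKO. For Napsa it was -4.91 and -2.23. For each of the 5 genes the call was lost in some fits with 1 library left out. Each such fit leaves 1 library in a group, and calls over all genes changed as well. The loss is therefore no result about these genes alone.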

How the results depend on the processing

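Of 42 calls of a gene in a contrast, 15 held under all 11 alternatives, 7 also without each library, and 0 changed direction. The 7 are Emp1, Msln, Stmn2 and Tgm1 between S23DKO and WT at day 4 and Emp1, Msln and Stmn2 between the knockouts at day 4. At day 0, S23DKO against WT gave 11 genes and 7 with length and GC offsets, with or without the replicate block. Over all genes, calls higher and lower were 3114 and 2685 in the main fit and 2970 and 2335 with the offsets. With the offsets and the block they were 2782 and 2254. The genes tested numbered 16632 to 24816, depending on setting and contrast. S4KO against WT at day 0 gave 5, 9 with DESeq2 and 10 with only the groups compared. Over all genes these fits called 1955 higher and 1708 lower of 18693, 2498 and 2494 of 18660, and 1945 and 2077 of 16632. Between the knockouts at day 0 there were 0, 1 without a filter, 4 with DESeq2 and 1 with the offsets. Over all genes, in that order, calls higher and lower were 402 and 632, 593 and 999, 840 and 1270, and 1040 and 1281. At day 4, S23DKO against WT gave 12 and 4 with limma without a filter. Over all genes these fits called 1347 higher and 1495 lower, and 1804 and 1430. S4KO against WT at day 4 gave 1, 3 with DESeq2, 2 with the offsets and the replicate block, and 0 with the replicate block, with only the groups compared and with each limma version. Over all genes, in that order, the first 3 fits called 127 higher and 196 lower, 517 and 536, and 459 and 426. The block gave 107 and 174, and only the groups compared gave 22 and 106. The limma versions gave 153 and 364 for log2(FPKM + 1), 167 and 277 for log2(FPKM + 0.1), and 175 and 471 without a filter. Between the knockouts at day 4 there were 8, 5 with only the groups compared and 4 with limma on log2(FPKM + 1) with or without a filter. Over all genes the main fit called 1092 higher and 1206 lower, and only the groups compared gave 2075 and 2433. The limma fits gave 885 and 1678 with a filter and 856 and 1733 without. The difference of the falls between S23DKO and WT gave 5, 14 without a filter, 9 with a minimum of 1 CPM, 16 with DESeq2, 13 with only the groups compared, 9 with limma on log2(FPKM + 1) and 2 with limma without a filter, and 2, 3 and 1 of the calls with DESeq2, limma and limma without a filter were in the other direction. Over all genes, positive and negative calls in the first 3 of these fits were 343 and 797, 940 and 1609, and 506 and 984. DESeq2 gave 1434 and 1788, and only the groups compared gave 505 and 1109. The limma fits gave 613 and 1112 with a filter and 412 and 800 without. The difference of the falls between S4KO and WT gave 0, 1 without a filter and 5 with DESeq2. Over all genes, positive and negative calls in these fits were 2 and 26, 358 and 504, and 772 and 777. Without S4KO day 4 replicate 1, an alternative added after the data were seen, the median difference of the 30 genes between S4KO and WT at day 4 went from 0.61 to -0.01. The causes were not tested.

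Leaving out 1 library gave 0 to 7 genes for S23DKO against WT and 0 to 3 for S4KO against WT at day 0, and 0 to 2 between the knockouts. At day 4 it gave 4 to 9, 0 to 6 and 4 to 9, and for the differences of the falls 0 to 9 and 0 to 3. The differences between replicates correlated at -0.25 to 0.54 over 15 pairs of groups. Of these, 3 were over 0.1, the highest for WT day 4 with S4KO day 0. Samples of 1 number thus did not deviate together in general, but a shared deviation is not excluded for single pairs. With the replicate block the counts were 9 and 6 against WT at day 0, 12 for S23DKO and 0 for S4KO against WT at day 4, 0 and 6 between the knockouts, and 6 and 0 for the differences of the falls. Over all genes, in that order, calls higher and lower were 2932 and 2578, 1750 and 1658, 1345 and 1372, and 107 and 174. Between the knockouts they were 343 and 602, then 1024 and 1216, and for the falls 277 and 651, then 0 and 24.

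A ratio of 2 gave 83 genes, a ratio of 4 gave 11, group means 75, TMM-scaled CPM 35, and FPKM 19, of which 18 were among the 30. Leaving out 1 library gave 30 to 51 genes.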
